A study of Oryza sativa with 27 samples.

Results

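The 100 probe sets described here had the largest lasting excess of transcript in the top part of the rice (Oryza sativa) ovary over its bottom part after pollination. A probe set is the group of short probes that measures 1 transcript on the Affymetrix Rice Genome Array. Members were chosen from 29332 of 57258 rice probe sets whose mean value over all arrays was above 0.264. For each probe set the difference between the group means of the top and the bottom part was taken on a log2 scale for 1, 2, 3 and 4 days after pollination (DAP). The smallest of these 4 differences was the score, and the 100 highest scores made the list. The values after pollination therefore chose the members, and the differences between the parts on those days are given as a description with no test. The arrays before pollination entered only the filter on low values, so the unpollinated differences come from arrays that the score did not use. The spread in their test was pooled over all 27 arrays, among them those that chose the members.

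Ovaries of paddy-grown plants were divided into a smaller basal piece, which holds the embryo per the labels, and the remaining larger upper piece, which the labels call mainly endosperm. The top part was measured on 3 arrays before pollination, on 2 arrays for each of 1, 2 and 3 DAP, and on 3 arrays at 4 DAP. The bottom part was measured on 3 arrays at each of the same 5 stages, which gives 27 arrays in 10 groups. The labels name no cultivar or genotype and no treatment other than pollination. Replicates are biological by their labels, which do not say from which plants they came, so p-values measure only the spread between these samples. Values are the deposited intensities, which on each array stand relative to that array's own 75th percentile, set to 1. The pieces hold several tissues, and fewer cells of a type cannot be told apart from less RNA per cell.

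As background, double fertilisation in cereals starts an embryo at the base of the embryo sac and an endosperm that fills most of it. The endosperm is at first a layer of free nuclei and forms cell walls some days later. Around it lie the nucellus, which is broken down as the grain grows, the integuments, and an ovary wall that is green and photosynthetic in the young grain. By this anatomy the top piece would hold ovary wall, integument and nucellus, with endosperm only after fertilisation, but its tissue makeup was not measured.

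Within a group, Pearson's r of the log2 values of 2 arrays was 0.863 to 0.978, and between groups it was 0.710 to 0.976, with no identical pair. Replicate 3 of the bottom part at 2, 3 and 4 DAP stood apart from its group in earlier results of these data. On these 3 arrays the median member lay below its group mean by a log2 difference of -0.46, -0.71 and -0.31, which widens the differences that chose the members. Results that rest on them are therefore given with and without them. The 18S rRNA signal, the mean of 2 control probe sets, ranged from 0.187 to 38.1 over the arrays. It was 0.346 to 1.22 on the unpollinated top arrays and 0.210 to 14.2 on the unpollinated bottom arrays. At 3 DAP it was 23.6 to 29.5 on top arrays and 0.311 to 10.1 on bottom arrays, the only stage at which the parts did not overlap. The part of the 18S signal in the results was examined only as an added term in the fit, and its part in the score was not tested.

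The labels were set against marker genes. The embryo and meristem homeobox gene OSH1 was lower in the top part by a log2 difference of -5.46 before pollination (limma adjusted p = 9.92e-12) and -4.35 at 4 DAP (adjusted p = 2.59e-09). The value before pollination precedes fertilisation, which starts the embryo, so it does not bear on the embryo label. Before pollination ROC1 and OsPNH1 of the same list were higher in the top part, by 0.82 (limma adjusted p = 0.0156) and 0.71 (adjusted p = 0.00367). Of 7 embryo genes tested, 1 was called higher and 3 lower at 1 DAP. At 2, 3 and 4 DAP 0 were called higher, and 1, 1 and 2 lower. Of 7 endosperm genes tested, 0 were called between the parts at 1, 2, 3 or 4 DAP, where 4.06%, 1.49%, 5.36% and 2.56% of all probe sets were called in either direction. Their summed values at 3 DAP were 63.8 to 94.7 on top arrays and 16.7 to 75.5 on bottom arrays, which overlap. At 4 DAP they were 136 to 229 on top arrays and 85.1 to 109 on bottom arrays, which do not, but the sum includes the member AGPS2. GLUA1, GLUA3 and GLUB4, glutelin genes of the later grain, did not pass the filter on low values. Of 3 genes of green tissue, CAB2R, RBCS and RCA, 2 were called higher in the unpollinated top part, and RBCS among them is a member. Their summed values were 6.87 to 8.91 on top arrays and 6.87 to 15.8 on bottom arrays at 1 DAP, which overlap. At 4 DAP they were 95.7 to 113 on top arrays and 57.2 to 79.6 on bottom arrays, which do not. In the same unpollinated comparison 1 of 7 endosperm genes was called higher and 0 lower, and 2 of 7 embryo genes higher and 3 lower. Of 9 ovule and nucellus genes 3 were called higher and 2 lower, of 6 carpel and style genes 2 and 2, and of 3 cutin and wax genes 0 and 2. RBCS, AGPS2 and OsMADS29, which are on the green tissue, endosperm and ovule lists, are themselves members. The part that the tissue makeup of the pieces plays in the results was not tested.

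Of the 100 members, 83 pointed to 1 gene in the array annotation, 1 to several and 16 to none, and the 83 reached 80 genes. LOC4326757, LOC4349876 and LOC4325060 each had 2 member probe sets. Of the genes, 16 had an informative name. None of the genes lay within 5 genes of another member in RefSeq gene order. The median member had a mean value of 3.14 over all arrays (range 0.465 to 20.2), against 1.04 for all probe sets tested.

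The highest score was 2.53, for LOC4347709. A score of at least 2 was reached by 2 members and a score of at least 1 by 17, with a median of 0.786. The last 3 members were LOC4330424 (0.670), LOC4329992 (0.669) and an unannotated probe set (rank 100, 0.669). The next 3 probe sets in the order were LOC4338932 (0.666), the DNA methyltransferase gene CMT3 (LOC4347954, 0.662) and a probe set annotated ENR (LOC4346596, 0.661). The list thus has no gap at its edge. The differences were above 0 on all 4 days for 7076 probe sets, 24.1% of those tested, and below 0 on all 4 days for 6328. Scored the other way round, the 100 probe sets lowest in the top part had scores from 4.35 down to 1.38, so the list described here holds smaller differences than its mirror image.

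The median member difference, top minus bottom on the log2 scale, was 0.57 before pollination, 1.01 at 1 DAP, 1.05 at 2 DAP, 1.19 at 3 DAP and 0.91 at 4 DAP. Over all probe sets tested the medians at the same stages were 0.02, 0.02, 0.03, 0.01 and -0.04. The largest of the 4 differences fell on 1 DAP for 23 members, on 2 DAP for 18, on 3 DAP for 51 and on 4 DAP for 8. Without the 3 bottom arrays that stood apart the member medians at 2, 3 and 4 DAP were 0.77, 0.83 and 0.73, below that at 1 DAP. The day of the largest difference was not counted without them. Every top array lay above every bottom array of the same day for 95 members at 1 DAP (23.8% of all tested), 86 at 2 DAP (16.7%), 87 at 3 DAP (18.4%) and 81 at 4 DAP (12.7%). On all 4 days this held for 63 members, against 2.79% of all tested. These counts describe what the score selected, and nothing is read from them.

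**Figure D1:**
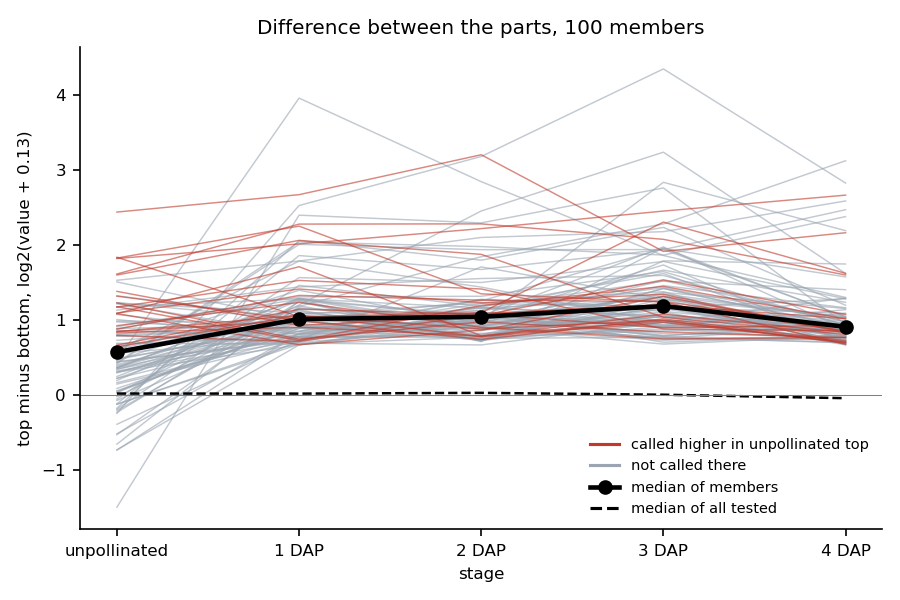
Difference between the parts (top minus bottom, log2 of value + 0.13, y axis) for each of the 100 members at the 5 stages (x axis). Red lines are the 22 members called higher in the unpollinated top part, grey lines the others, the black line is the median of the members (0.57 before pollination, 0.91 to 1.19 after it) and the dashed line the median of all probe sets tested.

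Before pollination 22 members were called higher in the top part and 0 were called lower, by limma at a Benjamini-Hochberg adjusted p under 0.05. Over all probe sets tested, 6.84% were called higher and 8.13% lower. At an unadjusted p under 0.05, 44 members were higher and 1 was lower, against 15% and 12.9% of all tested. The difference was above 0 for 82 members and below 0 for 18, with a range from -1.5 to 2.44. Every unpollinated top array lay above every unpollinated bottom array for 48 members, against 16% of all tested. The unpollinated difference was at least as large as the score for 38 members, of which 18 were called. The log2 differences of the 22 called members ran from 0.64 to 2.44. In 7 of them the gene had an informative name: the metal transporter gene OsNramp5, RBCS and OsGS2 of the chloroplast, PCF6, PCF8 and OsMADS29, which encode transcription factors, and ENR.

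The count depended on single arrays and on the spread that all 27 arrays share. Without the 3 bottom arrays that stood apart, which leaves every unpollinated value unchanged, 42 members were called higher and 1 lower, where 20.9% of all tested were called in either direction. Without bottom replicate 3 of the unpollinated stage 9 members were called, all of them higher in the top part. Over all tested 8.23% were called there in either direction, and the share called higher alone is not given here. Without top replicate 1 there were 14 calls (10.6% of all tested) and without top replicate 2 there were 13 (8.46%). With all arrays, 15% of all tested were called in either direction. Of the 22 calls, 9 held whichever unpollinated array was left out.

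**Figure D2:**
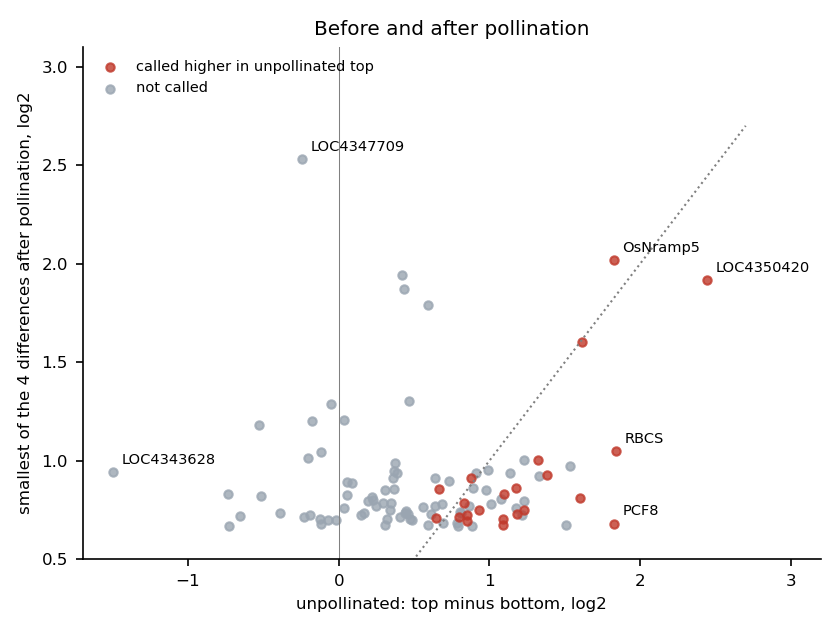
Smallest of the 4 differences after pollination (score, y axis, log2) against the difference between the unpollinated parts (top minus bottom, x axis, log2) for the 100 members. Red points are the 22 members called higher in the unpollinated top part by limma, the dotted line marks equal values, and 38 members lie on it or to its right.

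LOC4347709, the member with the highest score, has no informative name. Its values on top arrays were 0.121, 0.0781 and 0.164 before pollination, 1.14 and 3.71 at 1 DAP, 20.1 and 12.3 at 2 DAP, 21.8 and 23.5 at 3 DAP, and at 4 DAP 11, 1.85 and 1.65. On bottom arrays they were 0.196, 0.148 and 0.152 before pollination, 0.332, 0.268 and 0.174 at 1 DAP, 1.70, 1.87 and 1.31 at 2 DAP, 1.18, 2.02 and 0.362 at 3 DAP, and at 4 DAP 0.220, 0.822 and 0.196. The parts overlapped before pollination and on no day after it. The top arrays of 2 and 3 DAP were the highest of all, and at 4 DAP top replicate 1 lay well above the other two. The difference between the parts was -0.24 ± 0.58 (SE) before pollination (limma adjusted p = 0.849), and 2.53, 3.18, 4.35 and 2.83 on the 4 days. Without the 3 arrays that stood apart the last 3 of these were 3.05, 3.76 and 2.56.

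LOC4350420 was higher in the top part at every stage, with its highest top group mean, 2.87, at 2 DAP and its lowest, 1.21, at 4 DAP. On top arrays it had 1.42, 1.72 and 1.37 before pollination, 1.71 and 1.42 at 1 DAP, 3.78 and 1.96 at 2 DAP, 1.84 and 1.03 at 3 DAP, and at 4 DAP 1.39, 1.35 and 0.903. On bottom arrays the values lay between 0.0953 and 0.435. No top array of any stage overlapped with a bottom array. The unpollinated difference of 2.44 ± 0.24 (SE) was the largest among the members (limma adjusted p = 4.31e-07), and it was called whichever unpollinated array was left out. Between 4 and 1 DAP the call was not reached in the top part (log2 difference -0.35, adjusted p = 0.490) or in the bottom part (0.15, adjusted p = 0.824).

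LOC4326757 was measured by 2 member probe sets, which ran in parallel. Those with the suffixes x_at and s_at can bind transcripts of related genes, and 20 of the 100 members carry such a suffix, against 22.7% of all tested. The brighter of the pair had 46.3 and 34.1 on the top arrays of 2 DAP, against 39.6, 43.4 and 0.462 on the bottom arrays. Bottom replicate 3 alone lay below the top arrays there. Without it the difference at 2 DAP was -0.06, and that of the other probe set -0.09. LOC4342551 had the same arrays high and low at 2 DAP, with 5.96 and 6.26 on top arrays against 3.53, 4.49 and 0.0507 on bottom arrays. Without bottom replicate 3 the difference of LOC4342551 at 2 DAP was 0.60, where it was 2.10 with all arrays.

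LOC4351818 and LOC4348119 differed in when the parts came apart. LOC4351818 was called higher in the unpollinated top part, with 1.66, 1.21 and 4.30 there against 0.345, 1.3 and 0.413 in the unpollinated bottom part (log2 difference 1.62 ± 0.48, SE, limma adjusted p = 0.0274). Its unpollinated parts overlapped in 1 pair of arrays, and the call was lost when bottom replicate 1, bottom replicate 3 or top replicate 3 was left out, and when only the unpollinated arrays entered the fit. LOC4348119 had 0.123, 0.357 and 0.323 in the unpollinated top part and 0.141, 0.198 and 0.110 in the unpollinated bottom part, and then 5.99 and 4.34 against 0.116, 0.336 and 0.199 at 1 DAP. Its parts overlapped before pollination and were farthest apart at 1 DAP. LOC4338987, next in score, had unpollinated parts that overlapped (log2 difference -0.05, limma adjusted p = 0.926) and differences of 1.29 to 1.78 after pollination.

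**Figure D3:**
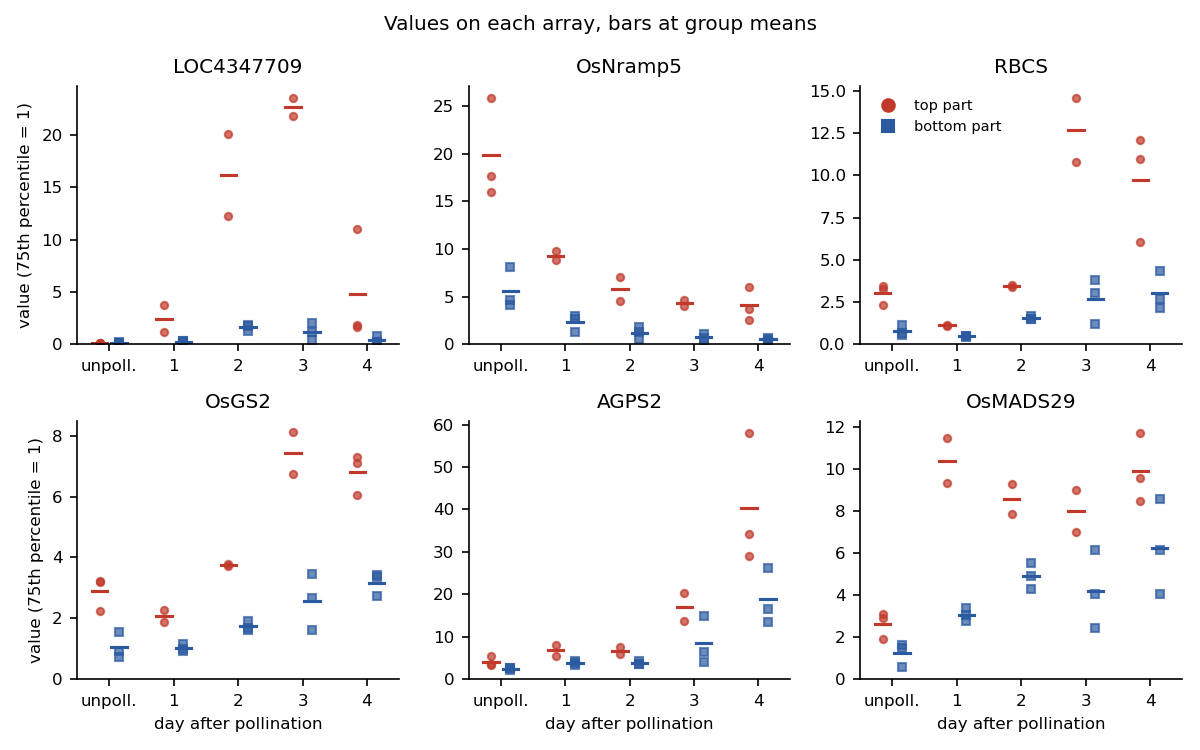
Value on each array (y axis, relative to the array's 75th percentile) at each stage (x axis) for 6 members, with top-part arrays as red circles to the left of bottom-part arrays as blue squares and bars at the group means. By group mean of the top part OsNramp5 is highest before pollination, LOC4347709 at 2 and 3 DAP, RBCS and OsGS2 at 3 and 4 DAP, and AGPS2 at 4 DAP, while OsMADS29 lies above its unpollinated values from 1 DAP on.

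Among the named members, 1 encodes a membrane transporter. OsNramp5 is the manganese transporter of the plasma membrane that also carries cadmium, best known from rice roots. In the top part it had 17.7, 15.9 and 25.8 before pollination, 9.73 and 8.79 at 1 DAP, 7.08 and 4.48 at 2 DAP, 4.6 and 3.96 at 3 DAP, and at 4 DAP 3.67, 2.54 and 6.01. In the bottom part it had 4.15, 8.11 and 4.63 before pollination, 1.32, 2.60 and 2.99 at 1 DAP, 1.26, 1.85 and 0.557 at 2 DAP, 1.11, 0.704 and 0.370 at 3 DAP, and at 4 DAP 0.659, 0.556 and 0.318. The parts overlapped at no stage, and both were highest before pollination. The unpollinated difference was 1.82 ± 0.41 (SE, limma adjusted p = 0.00421), and those on the 4 days were 2.02, 2.22, 2.46 and 2.67. It was 1 of 5 members whose mean change since the unpollinated stage was below 0 in both parts.

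RBCS and OsGS2 belong to chloroplast metabolism. RBCS is the small subunit of Rubisco, the enzyme that fixes carbon dioxide, and OsGS2 is the chloroplast glutamine synthetase, which assimilates ammonium. RBCS is encoded by a small family of near-identical genes, so its x_at probe set may hold signal of several copies. RBCS had 3.47, 3.27 and 2.35 in the unpollinated top part against 0.650, 1.16 and 0.529 in the unpollinated bottom part. At 1 DAP it had 1.09 and 1.15 on top arrays, against 0.437, 0.481 and 0.513 on bottom arrays. At 4 DAP it had 12.1, 6.06 and 10.9 on top arrays, against 2.17, 4.31 and 2.67 on bottom arrays. The parts overlapped at no stage, and both parts were lower at 1 DAP than before or later. The unpollinated difference was 1.84 ± 0.33 (SE, limma adjusted p = 6.41e-04), called whichever unpollinated array was left out.

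OsGS2 was lower in the top part at 1 DAP than before pollination, as RBCS was, by a log2 difference of -0.44. In the bottom part its difference at 1 DAP was 0.01. It had 3.21, 3.19 and 2.25 in the unpollinated top part against 0.921, 1.54 and 0.712 in the unpollinated bottom part, a log2 difference of 1.38 ± 0.24 (SE, limma adjusted p = 3.39e-04). At 4 DAP it had 7.30, 6.04 and 7.12 on top arrays, against 2.73, 3.44 and 3.35 on bottom arrays. The parts overlapped at no stage. Without the 3 arrays that stood apart its differences at 2, 3 and 4 DAP were 1.02, 1.26 and 1.12.

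AGPS2 encodes the small subunit of ADP-glucose pyrophosphorylase, the enzyme that makes the substrate for starch synthesis. It had 5.42, 3.54 and 3.42 in the unpollinated top part and 2.68, 2.10 and 2.66 in the unpollinated bottom part, a log2 difference of 0.68 ± 0.35 (SE) that was not called (limma adjusted p = 0.216). At 4 DAP it had 29.0, 34.3 and 58.1 on top arrays, against 13.5, 16.6 and 26.3 on bottom arrays. The parts did not overlap on that day. Its parts overlapped at 3 DAP, where the arrays had 20.2 and 13.6 against 14.9, 6.31 and 4.06, and at no other stage. ENR, a name used in plants for enoyl-ACP reductase of fatty acid synthesis, had 6.0, 5.16 and 5.24 against 4.01, 2.86 and 2.36 before pollination (log2 difference 0.83 ± 0.22, SE, limma adjusted p = 0.0130). Its parts overlapped at no stage, and the unpollinated call was lost without bottom replicate 3 or top replicate 1, and when only the unpollinated arrays entered the fit.

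OsMADS29, PCF6 and PCF8 encode transcription factors. OsMADS29 is a MADS-box factor of the ovule and young seed that is known for its role in the breakdown of the nucellus and in grain filling. PCF6 and PCF8 belong to the TCP family, which is named in part for factors that regulate cell proliferation. OsMADS29 had 3.12, 2.91 and 1.89 in the unpollinated top part against 1.62, 1.5 and 0.595 in the unpollinated bottom part. At 1 DAP it had 11.5 and 9.33 on top arrays, against 3.38, 3.06 and 2.78 on bottom arrays. At 4 DAP the arrays had 9.58, 11.7 and 8.48 against 8.59, 6.17 and 4.05, and the parts overlapped in 1 pair. The unpollinated difference was 1.09 ± 0.33 (SE, limma adjusted p = 0.0285). The call was lost without bottom replicate 3, where the difference was 0.68, and without top replicate 1 or top replicate 2, as well as when only the unpollinated arrays entered the fit.

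PCF8 had 2.33, 3.91 and 1.83 in the unpollinated top part against 0.616, 0.844 and 0.469 in the unpollinated bottom part (log2 difference 1.83 ± 0.24, SE, limma adjusted p = 1.61e-05). At 1 DAP it had 4.96 and 4.19 on top arrays against 1.11, 0.758 and 0.733 on bottom arrays, and at 4 DAP 3.13, 4.21 and 2.95 against 2.42, 1.74 and 2.10. The parts overlapped at no stage, and the difference narrowed from day to day, with 2.26 at 1 DAP, 1.35 at 2 DAP, 1.24 at 3 DAP and 0.68 at 4 DAP. PCF6 had 0.729, 1.08 and 0.696 against 0.456, 0.563 and 0.400 before pollination, a log2 difference of 0.67 ± 0.19 (SE, limma adjusted p = 0.0195). Its parts overlapped at no stage, and the unpollinated call was lost without bottom replicate 1, bottom replicate 3 or top replicate 2, and when only the unpollinated arrays entered the fit.

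The other 9 named genes were not called between the unpollinated parts. EXPA5 is an expansin, a protein that loosens cell walls, and BGLU8 a beta-glucosidase. EXPA5 had 5.81, 6.06 and 10.6 in the unpollinated top part and 4.00, 5.59 and 2.06 in the unpollinated bottom part (limma adjusted p = 0.480). After pollination its parts overlapped at 2, 3 and 4 DAP. Without the 3 arrays that stood apart its differences on those days were 0.25, 0.34 and 0.03. BGLU8 had unpollinated values of 4.03, 4.25 and 5.11 against 3.52, 3.37 and 2.65 (adjusted p = 0.449), which did not overlap.

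MCM2, a subunit of the helicase that opens DNA for replication, and KIN14F, a motor protein of the kinesin-14 family, act in dividing or growing cells. MCM2 was highest at 1 DAP, with 12.2 and 7.24 on top arrays against 3.61, 4.35 and 5.15 on bottom arrays, and its parts overlapped at no stage. Its unpollinated difference was 1.23 ± 0.46 (SE, limma adjusted p = 0.0804). KIN14F had an unpollinated difference of 0.44 (adjusted p = 0.442) and overlapped only before pollination. LEA19, a late embryogenesis abundant protein known from drying tissue, had unpollinated top arrays far apart, with 15.1, 1.02 and 5.33 against 0.720, 2.07 and 1.99 (limma adjusted p = 0.129).

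PDIL5-1 belongs to the protein disulfide isomerases, which help proteins fold. It had 2.41, 2.25 and 5.26 in the unpollinated top part against 3.39, 4.11 and 1.91 in the unpollinated bottom part, so the parts overlapped (log2 difference 0.03, limma adjusted p = 0.964). At 1 DAP it had 23.2 and 17.2 against 7.51, 9.75 and 13.3, and the parts did not overlap on any day after pollination. ROMT-17, of the O-methyltransferase family, had a log2 difference of 0.64 before pollination (adjusted p = 0.145) and 0.77 to 1.32 after it. Without the 3 arrays that stood apart its differences at 2, 3 and 4 DAP were 0.595, 1.02 and 0.69. HIRL2 had 1.13 before pollination (adjusted p = 0.143) and 0.94 to 1.60 after it, and its parts overlapped at 4 DAP. Without the same 3 arrays its differences at 2, 3 and 4 DAP were 1.05, 1.06 and 0.46.

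LOC4343628 had the lowest unpollinated difference of the members. It had 0.440, 0.681 and 0.277 in the unpollinated top part, against 1.87, 1.54 and 1.13 in the unpollinated bottom part. At 1 DAP it had 8.73 and 9.01 on top arrays, against 1.00, 1.87 and 2.05 on bottom arrays. Top arrays lay below all bottom arrays before pollination and above them on every day after it. The unpollinated difference of -1.5 ± 0.70 (SE) was not called (limma adjusted p = 0.163). The next lowest, the unannotated probe sets at ranks 41 and 100 of the score and LOC4324576, had -0.73, -0.73 and -0.65, and none of them was called.

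The mean change since the unpollinated stage, taken over the 4 days as a description with no test, was above 0 in both parts for 92 members. It was above 0 in the top part and below 0 in the bottom part for LOC4350186, LOC4344329 and LOC4327001. It was below 0 in both parts for 5 members. These were OsNramp5 (-1.82 in the top part, -2.33 in the bottom part), LOC4346301 (-2.64 and -2.48 in the same order), LEA19 (-0.44 and -0.28), LOC4339807 (-0.03 and -0.03) and LOC4340708 (-0.03 and -0.06). The bottom values include the 3 arrays that stood apart, and the changes were not taken without them. For LOC4339807 and LOC4340708, whose changes are close to 0, the sign in the bottom part rests on these arrays. The median change was 1.36 in the top part and 0.84 in the bottom part, against -0.01 and -0.02 for all probe sets tested. The members were chosen for high values in the top part after pollination, so nothing is read from the larger value there.

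**Figure D4:**
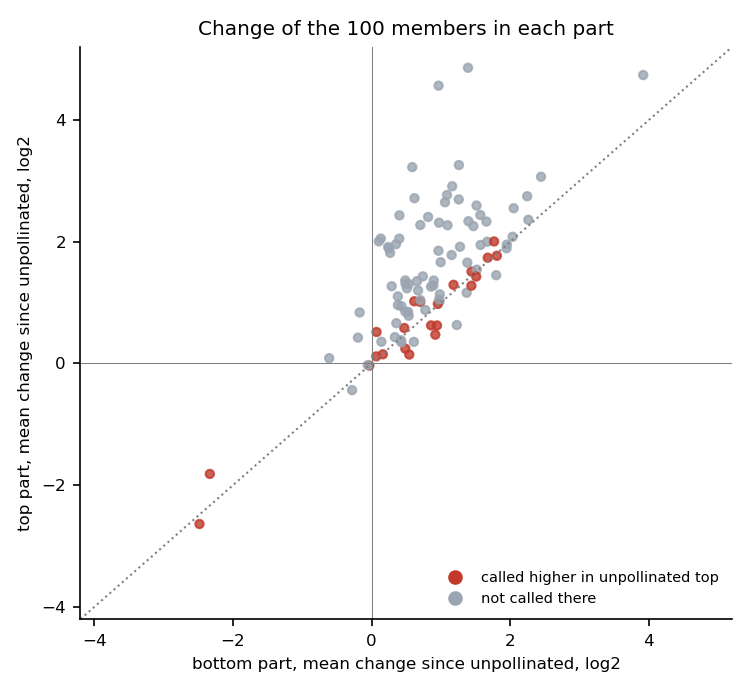
Mean change from the unpollinated stage to the 4 days after pollination (log2) in the top part (y axis) against the bottom part (x axis) for the 100 members. The dotted line marks equal change. A high unpollinated top value lowers the change in the top part by construction. Red points are the 22 members called higher in the unpollinated top part, and 92 members lie above 0 on both axes.

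The days were then compared within each part. The score treats the 4 days alike and so fixes no direction between them, but it used these arrays, so members are not an independent choice here. Between 4 DAP and 1 DAP in the top part, 19 members rose and 10 fell (limma adjusted p under 0.05), where 7.48% of all tested rose and 6.47% fell. In the bottom part 27 members rose and 10 fell, where 4.92% of all tested rose and 4.08% fell. Among the members 18 rose in both parts and 9 fell in both, 0 moved in opposite directions and 61 were called in neither. Calls in both parts were not counted over all probe sets tested. Whether this agreement between the parts is particular to the members was therefore not tested.

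The count in the top part depended on the arrays used. With all arrays 13.9% of all tested were called in either direction. The count was 51 members (29 higher, 22 lower) when only the arrays of 4 and 1 DAP entered the fit, where 20.9% of all tested were called. It was 46 (26 higher, 20 lower) without the 3 bottom arrays that stood apart, where 18.2% were called. Without replicate 1 of the top part at 1 DAP it was 12 (6.50% of all tested), and without replicate 2 it was 19 (7.96%). Of the 29 calls in the top part 11 held whichever array of the 2 groups compared was left out, and of the 37 in the bottom part 28 did.

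The largest rises in the top part were those of an unannotated probe set at rank 32 of the score, LOC4324933 and RBCS. The unannotated probe set had 6.71, 10.5 and 9.51 at 4 DAP, against 0.336 and 0.347 at 1 DAP, a log2 difference of 4.24 ± 0.52 (SE, limma adjusted p = 6.20e-06). In the bottom part it had 2.54, 1.28 and 1.81 at 4 DAP against 0.13, 0.0949 and 0.15 at 1 DAP (2.94, adjusted p = 2.07e-04). These groups did not overlap in either part. LOC4324933 rose by a log2 difference of 3.46 in the top part and 2.88 in the bottom part (adjusted p = 5.80e-04 and 0.00165). RBCS rose by 2.91 in the top part and 2.33 in the bottom part (adjusted p = 1.09e-05 and 7.44e-05).

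AGPS2, OsGS2, PCF6 and ENR also rose between 4 and 1 DAP in both parts. The log2 differences in the top and then the bottom part were 2.52 and 2.21 for AGPS2, 1.66 and 1.51 for OsGS2, 1.09 and 1.38 for PCF6, and 0.87 and 0.94 for ENR. Their limma adjusted p-values ran from 4.27e-05 for PCF6 in the bottom part to 0.0188 for ENR in the top part. The ENR call in the top part was lost when either 1 DAP array or replicate 2 or 3 of 4 DAP was left out, and after quantile normalization. AGPS2, OsGS2 and PCF6 kept both calls whichever array of the groups compared was left out. LOC4349876 had the largest rise in the bottom part, with log2 differences of 3.57 and 3.23 for its 2 probe sets (adjusted p = 0.00138 and 0.00147). In the top part the pair rose by 2.7 and 2.41 (adjusted p = 0.0206 and 0.0233), calls that were lost in 4 of the 5 fits that left out 1 array.

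The largest falls in the top part were those of LOC4346301, LOC4348119 and an unannotated probe set at rank 81 of the score. LOC4346301 had 0.955, 0.856 and 0.305 on top arrays at 4 DAP against 6.43 and 5.14 at 1 DAP, and 0.350, 0.305 and 0.283 on bottom arrays at 4 DAP against 1.16, 1.11 and 1.61 at 1 DAP. The days did not overlap in either part. Its log2 difference was -2.92 in the top part (limma adjusted p = 2.31e-06) and -1.67 in the bottom part (adjusted p = 6.08e-04). It was also called higher in the unpollinated top part, by 1.60 (adjusted p = 7.35e-04). LOC4348119 fell by 2.80 in the top part (adjusted p = 5.53e-04), and in the bottom part its difference was -0.14 (adjusted p = 0.930).

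OsNramp5 fell by 1.89 in the bottom part between 4 and 1 DAP (limma adjusted p = 0.00368). In the top part its difference of -1.24 was not called (adjusted p = 0.0776). LOC4330674 fell in both parts, with log2 differences of -1.6 (adjusted p = 0.0152) and -1.88 (adjusted p = 0.00248) in the top and the bottom part. The call in the top part was lost without replicate 1 of 1 DAP (adjusted p = 0.205). The unannotated probe set at rank 81 fell by 1.69 in the top part (adjusted p = 3.00e-05) and by 1.33 in the bottom part (adjusted p = 2.10e-04). PCF8 and ROMT-17 rose in the bottom part, by 1.16 (adjusted p = 0.00255) and 0.94 (adjusted p = 0.0403), and their differences in the top part, -0.41 and 0.66, were not called. The ROMT-17 call was lost in 5 of the 6 fits that left out 1 array. Whether a change between these days differed between the parts was not tested for the members, because that difference is made of the values that chose them.

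Other probe sets of the same genes bear on what a member measures. For 10 of the genes, 16 further probe sets were tested, of which 7 had a difference above 0 on all 4 days, and their median score was -0.12. The other PCF8 probe set had a score of 0.46 and an unpollinated difference of 1.16. The other RBCS probe sets had scores of 0.11 and -0.06 and unpollinated differences of 0.45 and -0.09, against 1.84 for the member. The other 3 probe sets of ROMT-17 had scores between -0.86 and -0.43, and each was lower in the top part at 1 DAP and higher from 2 DAP on. Their unpollinated differences were -1.07, -0.56 and -1.11, against 0.64 for the member. LOC4333690 was a member through 1 probe set, while its other 4, among them a pair with mean values of 124 and 121, had scores from -0.83 to -0.18. For ROMT-17, LOC4333690 and RBCS some probe sets of the gene thus disagreed in direction at 1 DAP, and for LOC4333690 the brightest one lay below 0 on all 4 days.

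The choice of members rests in part on the 3 bottom arrays that stood apart. Without them the median difference was 0.77 at 2 DAP, 0.83 at 3 DAP and 0.73 at 4 DAP, and the median score of the 100 members was 0.588. All 4 differences were still above 0 for 97 members, and the exceptions were both probe sets of LOC4326757 at 2 DAP and LOC4333690 at 4 DAP (-0.23). When the rule was applied anew without these arrays, 56 of the 100 members were chosen again. Of the 16 named genes, 10 were chosen again: OsNramp5, RBCS, LEA19, OsGS2, PCF6, ENR, AGPS2, ROMT-17, PDIL5-1 and PCF8. HIRL2, EXPA5, MCM2, KIN14F, OsMADS29 and BGLU8 were not. The 100 probe sets chosen in this way had a median unpollinated difference of 0.63, and 35 of them were called higher and 2 lower before pollination in the fit of all arrays.

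**Figure D5:**
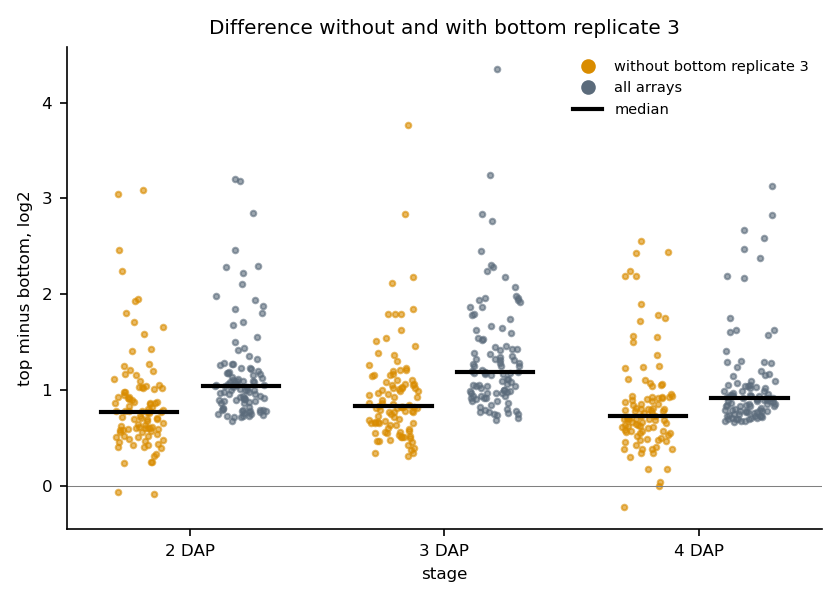
Difference between the parts (top minus bottom, log2, y axis) for the 100 members at 2, 3 and 4 DAP (x axis), without replicate 3 of the bottom part (orange, left) and with all arrays (grey, right), with bars at the medians. The medians without that replicate are 0.77, 0.83 and 0.73, and with all arrays 1.05, 1.19 and 0.91.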

How the data were processed

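Ovary parts were measured on Affymetrix rice arrays, 1 sample per array. The deposited intensity of each probe set was used, on a linear scale from 0.01 to 274, which the authors had divided by each array's 75th percentile, as read from the values. GCOS 1.3 is named in the submitters' processing notes, and the sources used here do not name the summary method, the background step or detection calls. The number of arrays limits the precision.

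Values were taken as log2(value + 0.13), the pseudocount being the 20th percentile of all values, so differences understate the change of low values. Group means of all 27 arrays were fitted in limma 3.58.1 (lmFit, eBayes with an intensity trend, R 4.3.3), with 17 residual and 3.68 prior degrees of freedom. Tests were two-sided and adjusted by Benjamini-Hochberg over 29332 rice probe sets, while 123 control probe sets were left out. The fit was tested on simulated data. Tables and figures used Python 3.11.15 with pandas 2.3.3, numpy 2.4.6 and matplotlib 3.10.9.

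The members, the rule for naming genes and the marker lists were chosen with earlier results of these data known. Genes were named from an array annotation and a RefSeq gene table, whose synonyms served as names because symbols were mostly locus numbers. Of the rice probe sets, 22436 had 1 gene, 95 several and 34727 none. Members named were the 10 highest scores with 1 gene, all with an informative name, those at the edge of the list, the extremes of each test and genes with several member probe sets. Marker names were matched without regard to case or the prefix Os: of 26 endosperm, 15 embryo, 9 ovule and nucellus, 12 green ovary wall, 11 carpel and style, and 13 cutin and wax names, 7, 7, 9, 3, 6 and 3 were tested. No sequences were used, since the sources used here do not name the build behind the array. Positions in the RefSeq gene table served only to find neighbouring genes. The alternatives tried were other pseudocounts, filters, normalization, arrays in the fit, variance models, array weights, a replicate block and single arrays left out.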

Additional observations from a re-analysis of the deposited data

How the results depend on the processing

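The limits are the number of arrays and the weight of single ones. For the counts of calls, only arrays of the 2 groups compared were left out, each in turn. This gave 9 to 21 members called between the unpollinated parts (22 with all arrays), while 8.23% to 17.2% of all tested were called. The median unpollinated difference was then 0.42 to 0.64. Between 4 and 1 DAP, 12 to 26 members were called in the top part (29 with all arrays), where 6.50% to 12.3% of all tested were called. In the bottom part 30 to 38 were called (37 with all arrays), where 6.37% to 7.95% of all tested were called. Leaving out each array after pollination in turn, 70 to 97 members were chosen again. In 21 such choices 26 members were always kept. Without the 3 bottom arrays that stood apart the counts were 43, 46 and 46 (20.9%, 18.2% and 10.8% of all tested), and 56 members were chosen again. With only the arrays compared the top part had 51 calls (20.9% of all tested) and the unpollinated parts 18 (6.53%), and with array weights, whose estimation stopped before converging, the top part had 51 (27.3%). No other setting moved a count of calls by over 1.5 times: the unpollinated count ran from 18 without a filter to 33, the count in the top part between 4 and 1 DAP from 25 to 36, in the bottom part from 33 to 48, and the members chosen again from 82 to 100. The 18S signal as a covariate, chosen after seeing the data, gave 22, 34 and 38. Of 45 results for single named members, 0 reversed under any setting, and 14 lost their call in at least 1. The replicate block gave 33, 36 and 40 calls. Replicate numbers did not pair the parts: deviations of same-numbered unpollinated arrays correlated with r of -0.02, 0.08 and -0.04, each top array was closest to a bottom array of another number (0.56, 0.51 and 0.55), and at 4 DAP the same-numbered values were -0.08, -0.18 and -0.07. The cause of these shifts was not tested.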
